A study of Mus musculus with 6 samples.

Results

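The genes described here are 37 that encode lysosomal hydrolases, their activators, lysosomal membrane proteins and the machinery that sorts hydrolases by their mannose 6-phosphate tag. They were chosen by symbol from the 57180 identifiers of the table, with cathepsins and proton pump subunits left out, and all 37 were found and passed the filter on low values (at least 1 TPM in at least 3 libraries). They comprise 11 glycan hydrolases, 5 sulfatases, 8 lipid hydrolases and activators, 2 peptidases, 7 membrane proteins and 4 sorting genes. Expression was measured by RNA sequencing in wild-type (WT) mouse bone marrow-derived macrophages (BMMs) after 5 days under conditions that drive osteoclast formation. Of 6 libraries, 3 are controls without the compound and 3 were treated with Visomitin, a plastoquinone antioxidant carried into mitochondria by a lipophilic cation. The labels state no age, sex or dose, and nothing says that libraries of a group came from separate mice or cultures. The p-values therefore measure library-to-library spread alone, and that spread may be technical.

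Lysosomes break down glycans, lipids and proteins with acid hydrolases, most of which receive a mannose 6-phosphate tag in the Golgi and are carried onward by receptors that bind the tag. Many of these genes carry in their promoters a short palindromic element, the CLEAR element, that is bound by the transcription factors TFEB and TFE3. In osteoclasts, lysosomes fuse with the membrane that faces bone, where their membrane proteins become part of the ruffled border and their enzymes are released onto the matrix.

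Values are TPM, shares of all transcripts corrected for gene length, which allow levels of different genes to be compared but keep no sequencing depth. Differences are on the log2(TPM + 1) scale, Visomitin minus control, which slightly understates changes of low genes. They were tested with limma, with Benjamini-Hochberg adjustment over all 11753 genes tested and a threshold of 0.05. Libraries correlated at r = 0.979 to 0.987 across genes within groups and 0.961 to 0.976 between them. The library Visomitin 1 lay apart from Visomitin 2 and 3 on the second principal component (19.6% of the variance). Adgre1, a macrophage marker, was at 630.3 to 941 TPM, and each of 11 osteoclast markers was above 1 TPM in every library.

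Of the 37 lysosomal genes, 4 were lower with Visomitin and 0 were higher, where 5.03% of all genes tested were called lower and 2.08% higher. The genes that fell were Arsb, a sulfatase (3.33-fold), Gnptab, which encodes the catalytic subunits of the enzyme that makes the mannose 6-phosphate tag (2.14-fold), Smpd1, acid sphingomyelinase (1.65-fold), and Gusb, beta-glucuronidase (1.26-fold). The other 33 did not pass, and their differences lay between -0.26 for Tmem192 and 0.48 for Mcoln1. The median over all 37 was 0.09, against -0.03 over all genes tested, with 22 values above 0 and 15 below. Before adjustment, 17 of the 37 had a limma p under 0.05, where 24.4% of all genes tested did. Each role class held at most 1 gene that fell. In bulk RNA, fewer osteoclasts and less RNA per osteoclast cannot be told apart.

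**Figure D1:**
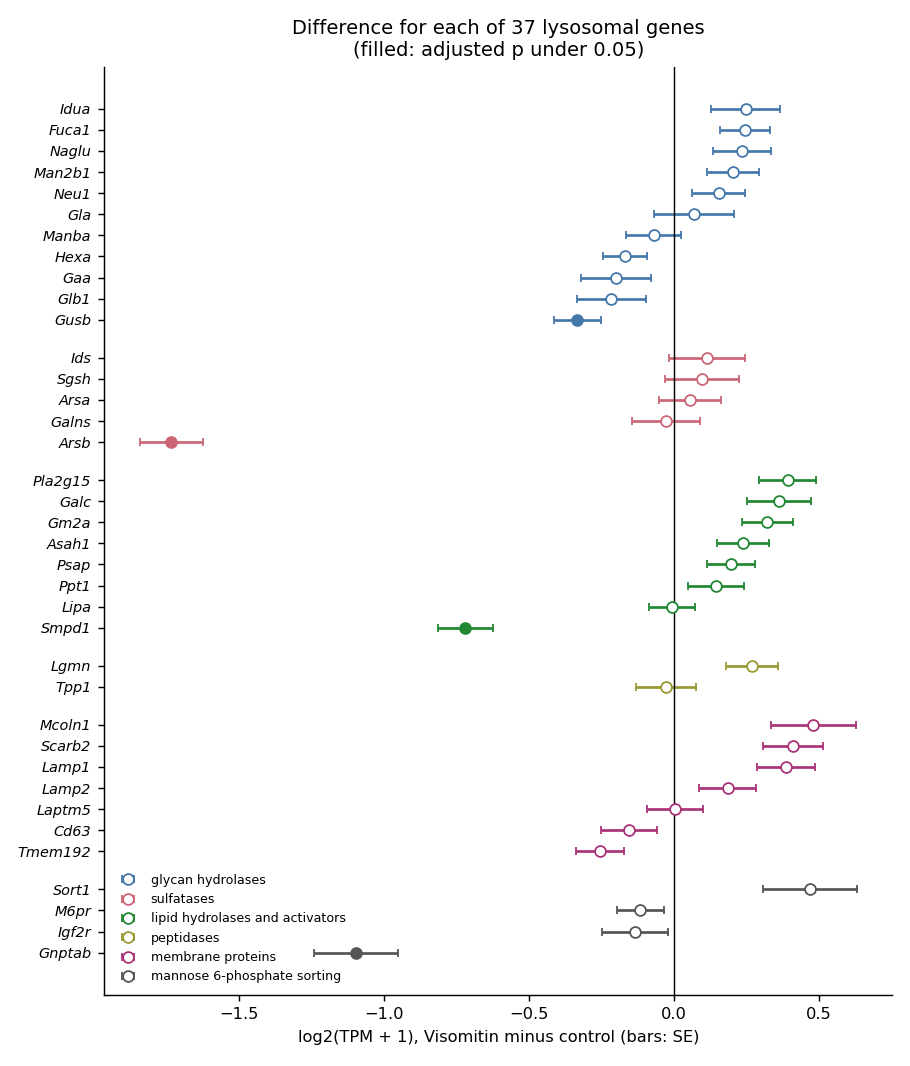
Difference in log2(TPM + 1), Visomitin minus control, for each of 37 lysosomal genes grouped by role, with the standard error from limma as bars; filled points have an adjusted p under 0.05. Arsb, Gnptab, Smpd1 and Gusb are filled and lie left of 0, while the open points lie between -0.26 and 0.48.

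Groups that did not overlap were more frequent than calls. In 13 of the 37 genes all Visomitin libraries lay above all controls, where 11.9% of all genes tested did so. In 7 all Visomitin libraries lay below all controls, where 18.4% of all genes tested did so. The remaining 17 overlapped. Within the Visomitin group the lowest library was Visomitin 1 for 35 of the 37 genes, the exceptions being Cd63 and Lamp2. Over all genes tested it was lowest for 63.9%. Within the controls the lowest was control 3 for 23 of the 37 genes, and for 37.3% of all genes tested. Leaving Visomitin 1 out gave 9 of 37 genes called higher, where 3.57% of all genes tested were, and 5 called lower, where 4.77% were. With any other library left out 0 were called higher, where 0.545% to 1.11% of all genes tested were. The genes called higher without Visomitin 1 were Lamp1, Mcoln1, Lgmn, Naglu, Gm2a, Man2b1, Fuca1, Psap and Pla2g15, and the added lower gene was Cd63. Scaling each library by its median ratio to the others also gave 9 higher (background 4.09%). It gave the same number lower as the unscaled fit of 6 libraries, 4 (background 5.86%). Of the higher genes, 7 were shared with the fit lacking Visomitin 1. Of calls over all genes, 70.8% were lower, against 58.9% after this scaling, 53.8% after quantile normalization, 55.4% with array weights and 57.2% without Visomitin 1; by contrast the share was 82.6% without Visomitin 2, 81.1% without Visomitin 3 and 80.8% with no filter.

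**Figure D2:**
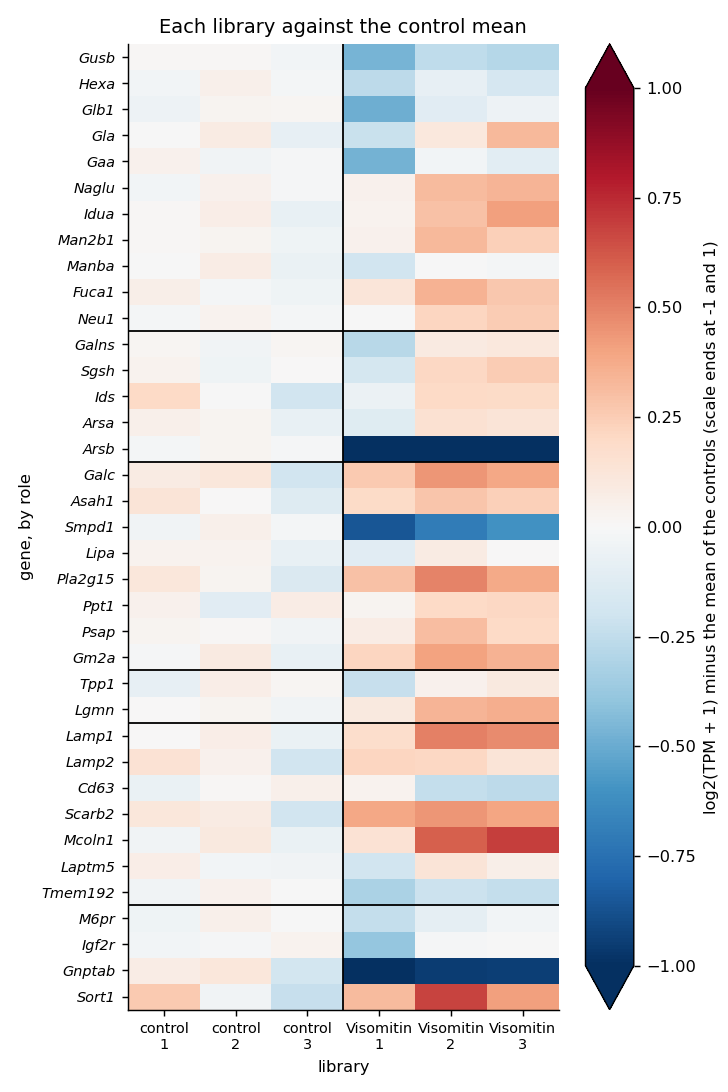
Level of each lysosomal gene in each library as log2(TPM + 1) minus the mean of the 3 controls, in rows by role class (black lines divide the classes in the order of the text) and columns by library. Arsb and Gnptab are at or near the blue end of the scale in all Visomitin libraries, and Visomitin 1 is the lowest of its group in 35 of 37 rows.

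Osteoclast markers, some macrophage markers and Itgax moved with the groups. The part of cell types in the results was not tested. Over all genes tested 5.03% were called lower and 2.08% higher. Of 11 osteoclast markers, among them Ctsk, Acp5 and Dcstamp, 11 fell, and their summed level was 11259.8 to 12207 TPM in controls and 2979 to 3588 TPM with Visomitin. Of 11 macrophage markers, 3 (Mrc1, Mertk and Cx3cr1) rose, with sums of 5604 to 5936 and 6034 to 7403 TPM. Stromal and osteoblast markers summed to 102 to 288 TPM in controls and 72.6 to 154 TPM with Visomitin, with 0 of 3 tested called and Bglap listed at 0. Of 6 dendritic cell markers 2 were tested and Itgax fell, with sums of 24.4 to 30.2 and 8.14 to 11.9 TPM and Cd209a listed at 0. These sums were mostly Itgax (means 26.3 and 8.60 TPM), and Zbtb46, the other marker tested, did not pass (-0.03, limma adjusted p = 0.94). Neutrophil and progenitor markers summed to 11.6 to 19.5 TPM in controls and 8.82 to 15.3 TPM with Visomitin, nearly all of it S100a8, with S100a9, Ly6g, Elane and Mpo listed at 0. Lymphocyte markers summed to at most 0.65 TPM in any library, with Cd3e and Cd79a listed at 0.

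Promoter windows from RefSeq (GRCm38.p6, 250 bases before to 50 after each start) were matched by symbol for 33 of the 37 genes. The letters CACGTG, the core of the CLEAR element, were found in 10 of these 33 and in 8.09% of all genes with a window. This core is its own reverse complement, so a match reads alike on both strands. The longer GTCACGTG, searched on both strands and always containing the core, was found in 9 of 33 and in 2.55% of all genes with a window. TCACGTGA, a palindrome that contains the core, was found in 3 (Gla, Igf2r and Mcoln1) and in 1.12% of all. For the other lysosome lists described below, 74 genes had a window. CACGTG was in 25.7% of these, GTCACGTG in 16.2% and TCACGTGA in 12.2%, against 30.3%, 27.3% and 9.09% of the 33. TGANTCA, the AP-1 motif, searched on both strands and able to share its last letters CA with the core, was found in 3 of 33 and in 8.97% of all. The promoters of Lamp1, with 4 copies of the core, and of Mcoln1, Igf2r and Gla, with 2 each, are shown because they hold the most copies. Those of Lgmn, Naglu, Arsa and Sgsh show single copies, with differences of 0.27, 0.23, 0.05 and 0.09. Glb1 (-0.22) and Gaa (-0.20), the lowest differences among genes with the core, also have a single copy and are not shown. The last 80 bases before the start of Arsb and Gnptab show the promoters of the genes that fell most. Each is written along the gene's own strand, with the core in capitals.
Lamp1, chr8:13159086-13159160, plus strand: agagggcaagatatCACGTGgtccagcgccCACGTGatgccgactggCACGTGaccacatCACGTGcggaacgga
Mcoln1, chr8:3500434-3500493, plus strand: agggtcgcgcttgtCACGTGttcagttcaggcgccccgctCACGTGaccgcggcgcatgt
Igf2r, chr17:12769707-12769768, minus strand: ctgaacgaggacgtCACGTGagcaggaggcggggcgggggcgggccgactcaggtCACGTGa
Gla, chrX:134601180-134601246, minus strand: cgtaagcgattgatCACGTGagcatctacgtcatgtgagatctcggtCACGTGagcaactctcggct
Lgmn, chr12:102439122-102439155, minus strand: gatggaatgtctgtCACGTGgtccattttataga
Naglu, chr11:101070007-101070040, plus strand: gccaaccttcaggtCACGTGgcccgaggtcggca
Arsa, chr15:89477425-89477454, minus strand: cttcaactcagtgtCACGTGttgtctgctc
Sgsh, chr11:119355520-119355553, minus strand: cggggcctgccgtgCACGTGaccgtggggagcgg
Arsb, chr13:93771599-93771678, plus strand: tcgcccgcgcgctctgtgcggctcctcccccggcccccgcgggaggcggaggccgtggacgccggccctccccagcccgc
Gnptab, chr10:88379188-88379267, plus strand: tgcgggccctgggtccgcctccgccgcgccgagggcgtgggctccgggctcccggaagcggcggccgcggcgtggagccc
In Lamp1 the cores began 61, 45, 28 and 15 bases before the start, and in Mcoln1 71 and 45 bases before it. None of Arsb, Gnptab, Smpd1 and Gusb had the core in its window, which says only that these letters are not there. The 9 genes with GTCACGTG had a median difference of 0.09, ranging from -0.22 for Glb1 to 0.48 for Mcoln1, with 7 above 0, 0 called lower and 0 called higher. The 24 without it had a median of 0.06, with 13 above 0, 4 called lower and 0 called higher. Split by the core alone the order of the medians was the opposite, 0.08 for the 10 genes with it and 0.11 for the 23 without. A match describes the sequence and was not tested as a binding site.

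Among the sulfatases, which remove sulfate from glycosaminoglycans or sulfatide, Arsb fell and the other 4 did not pass. Arsb (arylsulfatase B, ENSMUSG00000042082) releases sulfate from N-acetylgalactosamine in dermatan and chondroitin sulfate. Its level was 92.5, 95.1 and 93.0 TPM in controls 1 to 3 and 23.4, 29.8 and 29.4 TPM in Visomitin 1 to 3. The controls lay close together, and every Visomitin library was far below all of them. The change from 93.5 ± 1.38 to 27.5 ± 3.58 TPM (SD, n = 3) was -1.73 (SE 0.11, limma adjusted p = 7.86e-05). Galns, the other sulfatase here that acts on N-acetylgalactosamine, was at 44.6, 43.0 and 44.6 TPM in controls and 36.2, 46.9 and 47.5 TPM with Visomitin, and these ranges overlapped (-0.03, limma adjusted p = 0.91; 0.01 after median-ratio scaling). Ids, which acts on iduronate in dermatan and heparan sulfate, was at 24.9, 21.5 and 18.7 TPM in controls and 20.7, 24.9 and 24.8 TPM with Visomitin (0.11, SE 0.13, limma adjusted p = 0.65). Sgsh, which acts on heparan sulfate, was at 27.0 ± 0.775 and 29.2 ± 4.73 TPM and Arsa, which acts on sulfatide, at 32.1 ± 1.55 and 33.5 ± 3.52 TPM in controls and with Visomitin (SD, n = 3), differences of 0.09 and 0.05 with overlapping ranges. In controls Arsb was the most abundant sulfatase, and with Visomitin Arsa and Galns were above it in every library, as was Sgsh. Sumf1, which activates all sulfatases by modifying their catalytic cysteine, was at 63.5 ± 0.82 and 69.5 ± 6.17 TPM (SD, n = 3; 0.12, limma adjusted p = 0.45).

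Of the 4 sorting genes, Gnptab fell and the receptors did not pass. Gnptab (ENSMUSG00000035311) encodes the alpha and beta subunits of GlcNAc phosphotransferase, the first enzyme of the tagging reaction. It was at 76.0, 78.1 and 63.6 TPM in controls and 26.8, 36.9 and 37.2 TPM with Visomitin, with no overlap, and control 3 and Visomitin 1 were the lowest of their groups. The change from 72.6 ± 7.83 to 33.6 ± 5.96 TPM (SD, n = 3) was -1.10 (SE 0.15, limma adjusted p = 0.0041). Gnptg, for the gamma subunit of the same enzyme, was at 21.9, 23.3 and 25.9 TPM in controls and 21.7, 23.2 and 23.2 TPM with Visomitin (-0.06, limma adjusted p = 0.77). Nagpa, the enzyme that uncovers the tag, differed by -0.04 (limma adjusted p = 0.88). The receptor genes M6pr (cation-dependent receptor) and Igf2r (cation-independent receptor) were at 381 ± 12.4 and 102 ± 2.33 TPM in controls and 352 ± 26.2 and 94.0 ± 13.8 TPM with Visomitin (SD, n = 3). M6pr was the most abundant of the 4 sorting genes and differed by -0.12 (SE 0.08, limma adjusted p = 0.42). Its ranges overlapped, at 369, 394 and 379 TPM in controls and 323, 357 and 374 TPM with Visomitin. Sort1 (sortilin), a receptor that carries some hydrolases without the tag, was the least abundant of the 37 genes at 9.46, 7.54 and 6.46 TPM in controls and 9.87, 12.9 and 10.6 TPM with Visomitin. Its Visomitin libraries were all above the controls, Visomitin 1 by less than 1 TPM, and the difference did not pass (0.47, SE 0.16, limma adjusted p = 0.12).

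**Figure D3:**
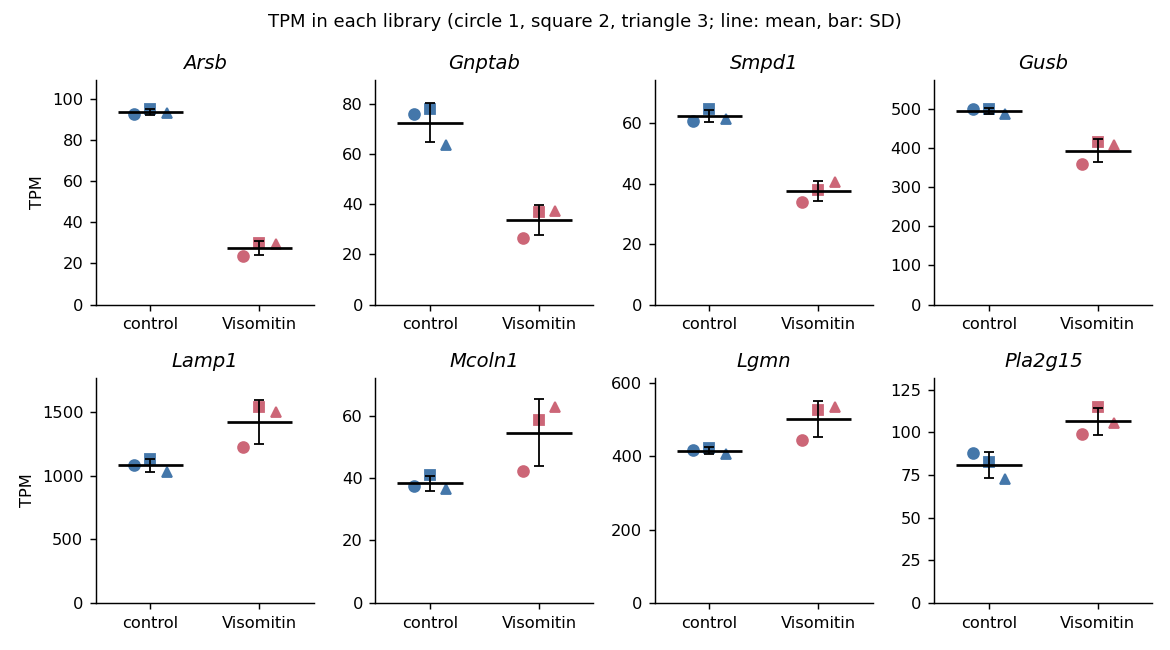
TPM in each library for 8 lysosomal genes (circle, square and triangle are libraries 1, 2 and 3 of a group; the line is the mean and the bar the SD, n = 3; each axis starts at 0). The upper row shows the 4 genes that fell, and in the lower row Lamp1, Mcoln1, Lgmn and Pla2g15 have every Visomitin library above every control without passing the test.

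Lipid hydrolases and their activators held 1 gene that fell, Smpd1, and 7 that did not pass, with a class median of 0.22. Smpd1 (ENSMUSG00000037049), which cleaves sphingomyelin to ceramide, was at 60.8, 64.7 and 61.5 TPM in controls and 34.0, 38.0 and 40.5 TPM with Visomitin. Groups did not overlap, and the change was -0.72 (SE 0.09, limma adjusted p = 0.0039), from 62.3 ± 2.07 to 37.5 ± 3.30 TPM (SD, n = 3). Asah1 (acid ceramidase), which takes the next step, was at 113, 103 and 94.0 and 118, 125 and 122 TPM, all Visomitin libraries above the controls (0.24, limma adjusted p = 0.15). Pla2g15, a lysosomal phospholipase, was at 87.6, 82.4 and 72.9 TPM in controls and 99.0, 115 and 105 TPM with Visomitin. It narrowly missed the threshold (0.39, SE 0.10, limma adjusted p = 0.052). With a library left out it passed only without Visomitin 1 (0.44, limma adjusted p = 0.043, up to 0.18 otherwise). Psap encodes prosaposin, the precursor of the saposins that present sphingolipids to their hydrolases, and was the most abundant of all 37 genes. It was at 4495, 4455 and 4309 TPM in controls and 4664, 5459 and 5083 TPM with Visomitin (0.19, SE 0.08, limma adjusted p = 0.19). Gm2a, the GM2 ganglioside activator, also had all Visomitin libraries above the controls, at 84.7 ± 4.82 and 106 ± 6.81 TPM (SD, n = 3; 0.32, limma adjusted p = 0.065). The same held for Galc, which degrades galactosylceramide, at 33.0 ± 3.83 and 42.5 ± 2.74 TPM (SD, n = 3; 0.36, limma adjusted p = 0.094). Ppt1, which removes palmitate from proteins, was at 55.9 ± 3.80 and 61.9 ± 4.43 TPM (SD, n = 3), a difference of 0.14 with overlap. Lipa (acid lipase), which frees cholesterol from its esters, was at 646 ± 28.8 and 642 ± 44.1 TPM (SD, n = 3), a difference under 0.01 in size (limma adjusted p = 0.96) whose sign turned with the scaling (0.03 with median ratios).

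Glycan hydrolases went in both directions by small amounts, 6 of 11 above 0 and 5 below, and only Gusb passed. Gusb (ENSMUSG00000025534), which removes glucuronate from glycosaminoglycans, was at 498, 499 and 486 TPM in controls and 358, 413 and 406 TPM with Visomitin. All Visomitin libraries were lower, and the change from 494 ± 7.28 to 393 ± 30.0 TPM (SD, n = 3) was -0.33 (SE 0.08, limma adjusted p = 0.044). Among fits with 5 libraries, the call was kept only in the one lacking Visomitin 1, and the limma adjusted p was 0.070 to 0.14 in the others. Hexa, a hexosaminidase subunit and the most abundant of the class, was at 633, 668 and 637 TPM in controls and 540.1, 609 and 576 TPM with Visomitin. These ranges did not overlap but the test was not passed (-0.17, SE 0.08, limma adjusted p = 0.21). Glb1 (beta-galactosidase) likewise lay below the controls (84.5, 89.2 and 88.6 TPM) without overlap (-0.22, limma adjusted p = 0.31), with Visomitin 1 at 62.1 TPM and Visomitin 2 and 3 at 80.8 and 84.2 TPM. Fuca1 (alpha-fucosidase) was at 140.2, 133 and 130.1 TPM in controls and 146, 171 and 162 TPM with Visomitin, all higher (0.24, SE 0.09, limma adjusted p = 0.13). Of the fits with a library left out, Fuca1 passed only in that without Visomitin 1 (0.31, limma adjusted p = 0.037, up to 0.35 otherwise). Naglu, which acts on heparan sulfate, and Man2b1 (alpha-mannosidase) were also above the controls in all Visomitin libraries, and neither passed. The margin was small for both. Visomitin 1 and control 2 were at 80.3 and 80.05 TPM for Naglu and at 220.1 and 217.4 TPM for Man2b1. Naglu was at 77.8 ± 2.04 and 91.9 ± 10.1 TPM (0.23) and Man2b1 at 214 ± 5.09 and 247 ± 24.6 TPM (0.20; SD, n = 3). Ranges overlapped for the other 5, given as control and Visomitin means in TPM (SD, n = 3). Gla, an alpha-galactosidase, was at 54.7 ± 3.27 and 58.0 ± 11.0 TPM (0.07), and Gaa, which degrades glycogen, at 81.1 ± 2.25 and 71.0 ± 11.3 TPM (-0.20). Idua, an alpha-iduronidase, was at 22.6 ± 1.10 and 27.1 ± 3.64 TPM (0.25), Manba, a beta-mannosidase, at 41.1 ± 2.11 and 39.1 ± 2.92 TPM (-0.07), and Neu1, a sialidase, at 76.6 ± 1.80 and 85.5 ± 8.11 TPM (0.15).

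Of the 7 membrane proteins 0 passed in limma (4 had an unadjusted p under 0.05, against 24.4% of all genes tested), with a median of 0.18 that was 0.089 without control 3. Lamp1, a heavily glycosylated protein that lines the lysosomal membrane, was at 1085, 1132 and 1031 TPM in controls and 1223, 1536 and 1503 TPM with Visomitin. Every Visomitin library was higher, Visomitin 1 the least, and the difference was 0.39 (SE 0.10, limma adjusted p = 0.057). Lamp1 passed without Visomitin 1 (0.49, limma adjusted p = 0.0075) but not with any other library left out (up to 0.18). Lamp2, a relative of Lamp1 that also takes part in chaperone-mediated autophagy, was at 201 ± 23.5 and 227 ± 7.40 TPM with overlap (SD, n = 3; 0.18, limma adjusted p = 0.3). Scarb2 (LIMP-2), a receptor that carries cargo to lysosomes without the mannose 6-phosphate tag, was at 42.2, 41.2 and 34.1 TPM in controls and 51.3, 53.4 and 51.6 TPM with Visomitin. It missed the threshold most narrowly of the 37 genes (0.41, SE 0.10, limma adjusted p = 0.051) and did not pass with any library left out (0.067 to 0.16). Mcoln1 (TRPML1), the calcium release channel of lysosomes, was at 37.4, 41.0 and 36.6 TPM in controls and 42.4, 58.6 and 62.6 TPM with Visomitin, all Visomitin libraries above the controls (0.48, SE 0.15, limma adjusted p = 0.09). Its only call with a library left out was without Visomitin 1 (0.65, limma adjusted p = 0.0099, up to 0.24 otherwise). Cd63, a tetraspanin of late endosomes, was at 1176, 1237 and 1274 TPM in controls and 1259, 1039.9 and 1022 TPM with Visomitin. Visomitin 1 lay within the control range and Visomitin 2 and 3 below it (-0.16, limma adjusted p = 0.36). Cd63 passed without Visomitin 1 (-0.25, limma adjusted p = 0.04) but not with any other library left out (up to 0.64). Tmem192, of unclear function, lay below the controls in all Visomitin libraries (50.7 ± 1.31 and 42.3 ± 1.56 TPM; SD, n = 3; -0.26, limma adjusted p = 0.1). Laptm5, a lysosomal protein of blood cells, was at 907 ± 35.9 and 912 ± 104 TPM (SD, n = 3) with a difference under 0.01 and limma adjusted p = 0.99.

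The peptidases are Lgmn (legumain), which cleaves after asparagine, and Tpp1, which removes tripeptides. Lgmn was at 416, 424 and 405 TPM in controls and 445, 527 and 534 TPM with Visomitin. All Visomitin libraries were higher, and the difference did not pass (0.27, SE 0.09, limma adjusted p = 0.11). Among fits with a library left out, Lgmn passed only without Visomitin 1 (0.35, limma adjusted p = 0.013, up to 0.30 otherwise). Tpp1 was at 162, 180.0 and 174 TPM in controls and 146, 177 and 184 TPM with Visomitin, with overlap (-0.03, SE 0.10, limma adjusted p = 0.9; 0.013 after median-ratio scaling).

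The summed level of the 37 genes was 12436, 12515 and 12046 TPM in controls and 12159, 13915 and 13358 TPM with Visomitin, and these ranges overlapped. Psap was its largest single part, and without Psap the sum was 7737 to 8060.4 and 7495 to 8455 TPM. In controls the order of levels was Psap, then Cd63, Lamp1, Laptm5, Hexa and Lipa. Hexa and Lipa, at 646 ± 19.3 and 646 ± 28.8 TPM (SD, n = 3), did not differ beyond their spread. With Visomitin Lamp1 was above Cd63 on average, at 1421 ± 172 and 1107 ± 132 TPM (SD, n = 3), and the order in Visomitin 1 was still Cd63 above Lamp1. Summed sulfatases were 214 to 223 TPM in controls and 133 to 169 TPM with Visomitin. The means of this sum, 218 and 157 TPM, differed by less than those of Arsb alone, 93.5 and 27.5 TPM. Summed membrane proteins were 3486 to 3597 and 3644 to 3955 TPM, which did not overlap. The means of this sum, 3548 and 3816 TPM, differed by less than those of Lamp1 alone, 1083 and 1421 TPM. Neither sum therefore describes its class as a whole.

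Ratios of genes within a library do not depend on how libraries are scaled to each other, and are given for partner genes as a description. Of 10 ratios computed, 8 had groups that did not overlap, and not all are shown. An exact permutation test gave p = 0.1 for each of those 8 (0.125 after Benjamini-Hochberg adjustment), its lowest possible value with 3 libraries a group. The pairs were chosen with the values known, so a ratio that differs restates the changes of the genes in it. Gnptab to Gnptg, subunits of the same enzyme, was 3.47, 3.35 and 2.46 in controls and 1.23, 1.59 and 1.60 with Visomitin. Arsb to Galns was 2.07, 2.21 and 2.09 in controls and 0.647, 0.636 and 0.619 with Visomitin, so the more abundant of the pair differed between the groups. Smpd1 to Asah1, consecutive enzymes of sphingomyelin breakdown, was 0.538, 0.626 and 0.654 in controls and 0.288, 0.304 and 0.332 with Visomitin. Hexa to Gm2a, an enzyme subunit and the activator it needs for GM2 ganglioside, was 7.57, 7.44 and 7.93 in controls and 5.48, 5.45 and 5.35 with Visomitin. The receptor ratio M6pr to Igf2r, at 3.67, 3.87 and 3.61 and 4.14, 3.52 and 3.65, overlapped, as did Lamp1 to Lamp2, at 4.91, 5.49 and 5.89 and 5.27, 6.65 and 6.87.

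**Figure D4:**
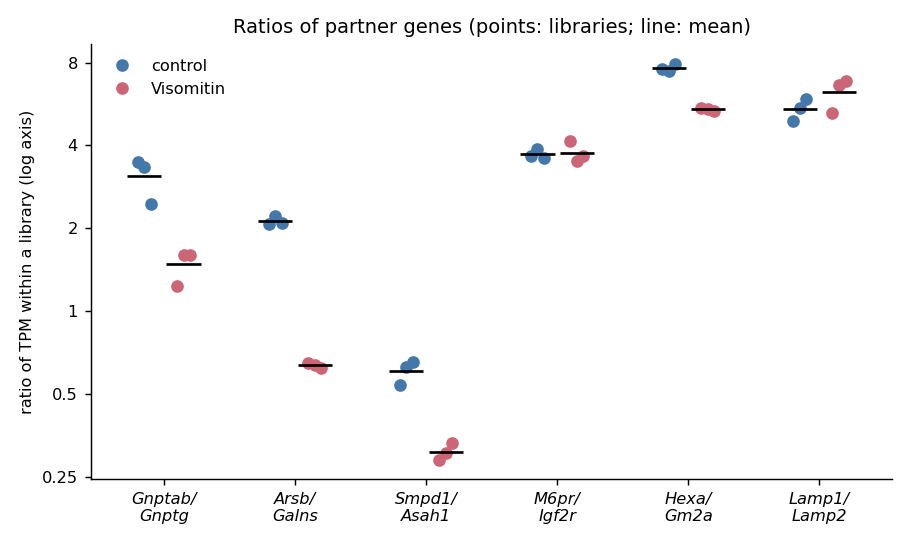
Ratio of TPM of partner genes within each library on a log axis (points are libraries, blue for control and red for Visomitin; the black line is the mean). The groups are apart for Gnptab to Gnptg, Arsb to Galns, Smpd1 to Asah1 and Hexa to Gm2a, and overlap for M6pr to Igf2r and Lamp1 to Lamp2.

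Other genes of the lysosome were taken from separate lists. Over all genes tested, 2.08% were called higher and 5.03% lower. Of 29 other soluble enzymes, 6 rose (20.7%) and 2 fell (6.90%), with a median of 0.12. Hyal1, a hyaluronidase, fell from 16.0 ± 2.37 to 7.15 ± 1.07 TPM (SD, n = 3; -1.06, SE 0.15, limma adjusted p = 0.0053). Prcp, a carboxypeptidase, rose from 47.0 ± 3.80 to 67.3 ± 4.27 TPM (SD, n = 3; 0.51, limma adjusted p = 0.019), as did the peptidase gene Scpep1 (0.35, limma adjusted p = 0.024). Of 28 tested other membrane proteins 1 rose (3.57%) and 2 fell (7.14%). Clcn7, the chloride-proton exchanger of lysosomes and the ruffled border, fell from 196 ± 9.05 to 117 ± 10.3 TPM (SD, n = 3; -0.74, SE 0.09, limma adjusted p = 0.0027), Laptm4b fell (-0.67, limma adjusted p = 0.019) and Sidt2 rose (0.45, limma adjusted p = 0.036). Of 18 other sorting genes 0 rose and 1 fell (5.56%), the clathrin adaptor gene Ap1s1 (-0.40, limma adjusted p = 0.024). Calls of Prcp, Scpep1, Laptm4b, Sidt2, Ap1s1 and Rragc were each lost without control 1, without control 3 or without Visomitin 2, and all but that of Prcp without control 2. Those of Scpep1, Sidt2, Ap1s1 and Rragc were also lost without Visomitin 3 (limma adjusted p up to 0.13 over these fits), while Hyal1 and Clcn7 kept theirs with any 1 library left out.

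Transcripts of the transcription factors that act on the CLEAR element did not pass the test. Tfeb was at 28.3, 27.9 and 26.1 TPM in controls and 26.0, 34.1 and 31.8 TPM with Visomitin (0.15, SE 0.12, limma adjusted p = 0.49). Its difference was 0.26 without Visomitin 1 and 0.07 without Visomitin 2, and it passed with array weights (0.26, limma adjusted p = 0.048). Tfe3 was at 103 ± 6.32 and 105 ± 19.0 TPM (SD, n = 3; 0.01, limma adjusted p = 0.96) and Tfec at 32.3 ± 3.41 and 30.1 ± 1.63 TPM (SD, n = 3; -0.10, limma adjusted p = 0.63). Mitf, their relative that also drives osteoclast genes, was below the controls in all Visomitin libraries, at 23.0, 15.8 and 16.5 and 13.2, 14.0 and 14.7 TPM, and did not pass (-0.36, limma adjusted p = 0.18; -0.20 without control 1). Of 18 tested genes of this family and of its control by mTORC1, the growth kinase complex at the lysosome, 1 rose (5.56%) and 0 fell. Over all genes tested 2.08% were called higher and 5.03% lower. The gene that rose was Rragc, a Rag GTPase that recruits mTORC1, which went from 91.8 ± 7.26 to 122 ± 7.38 TPM (SD, n = 3; 0.41, SE 0.09, limma adjusted p = 0.034). Location and phosphorylation of these factors, which set their activity, were not analysed here.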

How the data were processed

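RNA-seq values for 6 libraries were used as the authors deposited them, in TPM per gene and library; fastp, HISAT2 and StringTie are named in the submitters' processing notes, and versions, genome build and annotation are not given in the sources used. Of 57180 identifiers, 51884 were matched to symbols through a gene name table; 1 listed symbol was found through its RefSeq synonym. No further scaling was applied. The 11753 genes reaching 1 TPM in 3 or more libraries were fitted on log2(TPM + 1) in R 4.3.3 by limma 3.58.1 with statmod 1.5.0 (eBayes with trend, two-sided), and the model held group alone. The fit was tested on simulated data. TPM keep no depth, so the depth is unknown, and precision is set by having 3 libraries a group. At most 0.391% of tested genes had equal TPM in any pair of libraries. Library numbers were not used as pairs, since the labels state no pairing. Residual correlations within a number were 0.05, 0.02 and 0.17, and were not compared with those between numbers, so they do not settle whether libraries were paired.

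The members and gene lists were chosen with earlier results of these data known. Given in full are the members that pass the test, and in each role class the 2 members with the lowest p-values and the most abundant; of other lysosomal genes, those that pass, up to 4 per list, with Tfeb, Tfe3, Mitf and Tfec. Other members are given more briefly, and Gnptg, Nagpa, Sumf1 and the ratios were chosen after their values were seen. The alternatives were 2 other pseudocounts, 2 other filters, 3 scalings, no trend, array weights, a block for the library number, and each library left out, 16 in all. Some listed genes and the results that need them are not reported here.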

Additional observations from a re-analysis of the deposited data

How the results depend on the processing

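Arsb, Gnptab and Smpd1 were called lower under all 16 alternatives (limma adjusted p up to 0.0022, 0.032 and 0.0255), at -1.79 to -1.60, -1.19 to -0.94 and -0.78 to -0.65. Gusb kept its direction under all 16 and its call under 8; it was lost with no filter, without the trend, under quantile normalization and without each library except Visomitin 1 (adjusted p 0.0076 to 0.14 over all alternatives). Of the 37 genes, 4 were called, 0 higher, where 7.10% of all genes tested were called and 2.08% higher. Requiring a mean of 5 TPM gave 7 called and 3 higher (all genes 8.77% and 2.88%). Median-ratio scaling gave 13 and 9 (all genes 9.95% and 4.09%) and quantile normalization 11 and 8 (all genes 10.3% and 4.76%). Array weights gave 21 and 15 (all genes 24.1% and 10.7%). With a replicate block for the library number 6 were called and 2 of these were higher (all genes 9.42% and 2.62%). The 2 higher were Lamp1 (limma adjusted p = 0.043) and Scarb2 (0.047), and the calls of the 4 lower, Arsb, Gnptab, Smpd1 and Gusb, were kept. With each library left out in turn, 3 to 14 were called (all genes 2.63% to 8.35%), 0 to 9 higher (all genes 0.545% to 3.57%). The number lower was 3 to 5. The highest counts came without Visomitin 1, where 5 were lower (all genes 4.77%), and with any other library left out 0 were higher. Such fits have fewer libraries. The median of the 37 genes was 0.20 without Visomitin 1, 0.03 without control 3, 0.05 without Visomitin 2 and 0.02 without Visomitin 3, and stayed above 0 under all alternatives.

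Over all genes 835 were called, 381 with no filter, 2835 with array weights, and 309 to 981 with a library left out. Tpp1 changed sign with median-ratio scaling (0.013), quantile normalization (0.065) and array weights (0.040), and without control 2 (0.0041) or Visomitin 1 (0.072), and ranged from -0.093 to 0.072 with a library left out. Tfe3 changed sign without control 1 (-0.012), control 3 (-0.0099) or Visomitin 2 (-0.12), and ranged from -0.12 to 0.13. Tpp1 and Tfe3 passed under none of these. The sign also changed under 6 of 16 alternatives for Lipa and for Laptm5, 4 for Galns and 1 for Gla. None of these genes passed under any alternative. Depth is unknown, so no limit from it can be given. The cause of these changes was not tested.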

Other observations

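Gusb is a common reference gene for quantitative PCR. Here it was 1.26-fold lower with Visomitin on the log2(TPM + 1) scale, with all Visomitin libraries under all controls, although the call was lost in 8 of 16 alternatives.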
